A study of Rosa hybrid cultivar with 39 samples.

Results

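Jasmonate and salicylate were compared directly in rose petals, as the average expression of every gene after jasmonic acid (JA) set against the average after salicylic acid (SA). The comparison rests on 6 of the 39 RNA-seq libraries, 3 from JA and 3 from SA, with the 3 libraries from water (H2O) as the common reference point. Of 30208 gene identifiers, 14169 had an expression of at least 1 FPKM in JA or SA and were compared. FPKM, fragments per kilobase of transcript scaled to the mapped fragments of the library, is a level per length. A gene was called apart at a difference of at least 2-fold, taken from the log2 ratio of FPKM plus 1, a scale on which differences of weakly expressed genes appear smaller.

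All flowers were of the cut rose cultivar 'Samantha', with no altered gene, and were harvested at stage 2 of opening. Flowering stems stood for 24 h in deionized water, in 50 µM JA or in 100 µM SA, and the outer petals were then sampled. Each library pooled several flowers. The doses of the acids differed, so hormone and dose cannot be told apart, and the JA was the racemic acid. The other solutions were the synthetic auxins NAA and 2,4-D, the brassinosteroid BR, the cytokinin 6-BA, abscisic acid (ABA), the gibberellin GA3 and AgNO3. The silver ions of AgNO3 block ethylene perception. ET-CK (air) and 1-MCP, another blocker of ethylene perception, were given as gas, and air was the control of 1-MCP.

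Jasmonates and salicylate are the classic defence hormones of plants. In Arabidopsis, jasmonate linked to isoleucine is bound by the receptor COI1 together with JAZ repressors, which are then degraded and release transcription factors such as MYC2, whereas salicylate is bound by NPR proteins that control genes of systemic resistance. The pathways often oppose each other in leaves under attack, jasmonate acting against chewing insects and necrotrophic fungi and salicylate against biotrophic pathogens. In flowers, jasmonate is also known for its part in stamen maturation and in the limit to petal growth in Arabidopsis.

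The deposited values are 1 average FPKM per condition. The spread between replicates is therefore not in them, no difference could be tested, and the counts below describe these averages. The depth behind each value is unknown from these averages. The genes carry identifiers that are not paired with names, so the pathway genes of either hormone, the markers of petal tissue and the response to each treatment could not be checked by name. The RNA integrity numbers that the study lists were higher for every JA library than for any SA library, and their part in the differences was not tested. Sums of FPKM over all genes were 899680 in JA, 749755 in SA and 897264 in H2O, the lowest sum of these conditions being that of SA.

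JA and SA left most petal genes at similar levels. At least 2-fold apart were 539 genes, which is 3.80% of those compared. JA was higher for 317 genes, or 2.24%, and SA for 222 genes, or 1.57%. The log2 ratio of JA to SA had a median of -0.02 and lay between -0.70 and 0.72 from the 5th to the 95th percentile. The full range went from -5.56 to 5.51.

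Large differences were more often in favour of JA. At least 4-fold apart were 48 genes higher in JA and 12 higher in SA, at least 8-fold 10 and 1, and at least 16-fold 2 and 1. The genes higher in JA were also the more strongly expressed ones. Of the 317 genes higher in JA, 228 reached 10 FPKM in JA, whereas 76 of the 222 genes higher in SA did so in SA. The median gene higher in JA stood at 28.5 FPKM in JA, 8.72 in SA and 8.17 in H2O. The median gene higher in SA stood at 6.11 FPKM in SA, 1.90 in JA and 2.52 in H2O.

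The balance between the treatments turned over with expression level. Among the 6648 genes with 1 to 10 FPKM in the higher of the acids, JA was higher for 89 (1.34%) and SA for 146 (2.20%). Among the 5975 genes with 10 to 100 FPKM the counts were 139 (2.33%) and 68 (1.14%). From 100 to 1000 FPKM, JA was higher for 81 of 1445 genes (5.61%) and SA for 7 (0.484%). Above this, 8 of 101 genes were higher in JA (7.92%) and 1 was higher in SA (0.990%). The shift ran through whole level ranges and not only through the genes called, since the median log2 ratio of JA to SA was -0.12, 0.02, 0.25 and 0.32 in these ranges. In the highest range, JA stood above SA for 89.1% of genes. Against H2O, the median log2 ratio of SA fell from 0.18 in the lowest range to -0.33 in the highest, while that of JA went from 0.09 to 0.04.

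**Figure D1:**
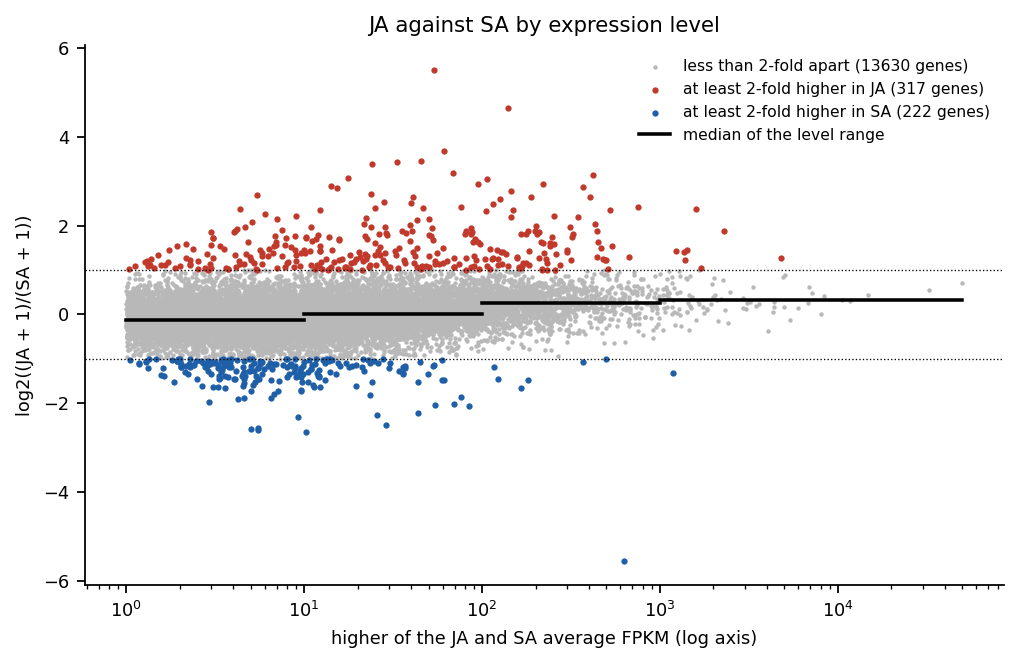
Log2 ratio of JA to SA (FPKM plus 1, vertical axis) against the higher of the average FPKM in JA and SA (log axis), 1 point per gene for the 14169 genes compared. Red points are the 317 genes at least 2-fold higher in JA, blue points the 222 at least 2-fold higher in SA, dotted lines mark 2-fold, and black bars give the median of each level range, which moves from -0.12 to 0.32.

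The split of the calls depended on how the averages were scaled. When each average was divided by its own sum, the median log2 ratio moved from -0.02 to -0.26, and 222 genes were higher in JA against 567 in SA. The share of calls in favour of JA was then 28.1%, compared with 58.8% for the values as deposited. Which scaling is the better one cannot be told from the averages. The most abundant transcripts, picked after their values were seen, moved with this shift. LOC112199140, the highest gene in every condition, was at 49789 FPKM in JA, 30592 in SA and 42338 in H2O, and the 10 highest genes held 17.4% of the sum in JA, 15.0% in SA and 17.1% in H2O.

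Among all solutions, JA and SA were neither close nor far. Of the 45 pairs among the 10 solutions, ordered from the fewest genes apart, JA and SA came 16th. The range went from 124 genes (0.873%) between SA and AgNO3 to 3459 genes (24.2%) between BR and ABA. The conditions nearest to JA were GA3, with 329 genes apart, and 2,4-D, with 407. Those nearest to SA were AgNO3 and GA3, with 124 and 262 genes. The pairs share averages and are therefore not independent of each other.

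Which treatment had moved away from water was read for each of the 539 genes from its own 2 ratios to H2O, again with 2-fold as the limit. Both ratios use the same H2O average. For orientation, 860 genes were higher in JA than in H2O (6.17% of 13936) and 347 lower (2.49%). In SA, 1093 genes were higher (7.70% of 14190) and 426 lower (3.00%). Among the 539 genes, JA alone had moved in 208 (38.6%) and SA alone in 128 (23.7%). Both had moved the same way to unequal extents in 65 genes (12.1%), and 1 gene had moved in opposite ways. In the remaining 137 genes (25.4%) neither acid was 2-fold from H2O. In such genes H2O must lie between JA and SA, because the acids are at least 2-fold apart.

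The place of water relative to the acids was counted as well. H2O lay between JA and SA in 254 of the 539 genes (47.1%), below both in 219 (40.6%) and above both in 66 (12.2%). The 254 include the 137 genes placed there by definition. JA was the treatment further from H2O in 326 genes and SA in 213. By direction, JA was further in 236 of the 317 genes higher in JA, and SA in 132 of the 222 genes higher in SA. The genes were called from the same JA and SA averages, so these counts are not independent of the call. The counts over all compared genes were not made.

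**Figure D2:**
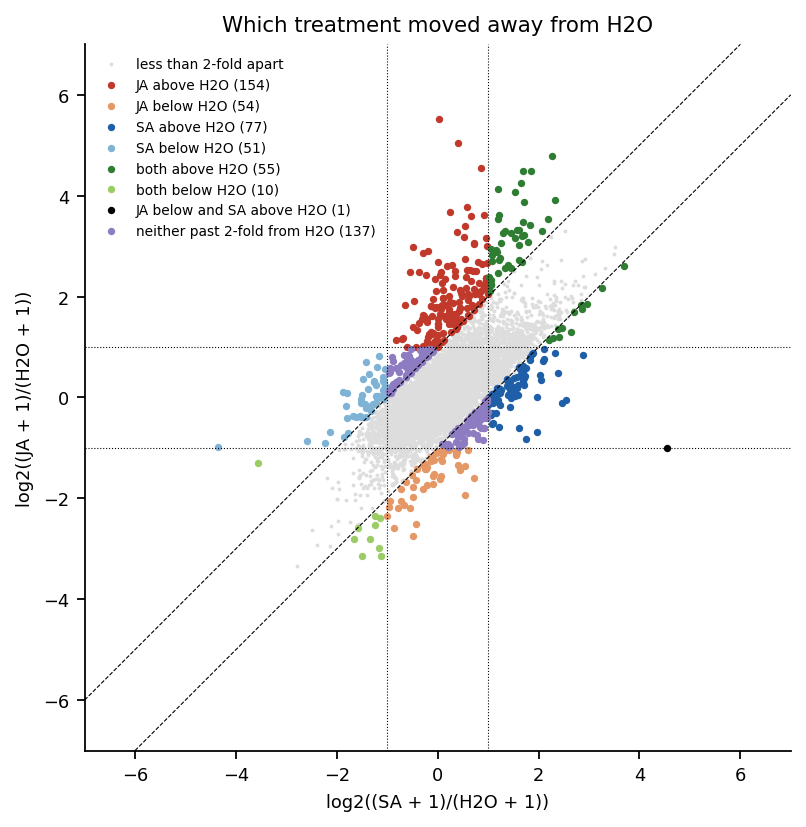
Log2 ratio to H2O in JA (vertical axis) against that in SA (horizontal axis), FPKM plus 1, 1 point per gene. Colours give the 539 genes at least 2-fold apart by the treatment that moved (154 with JA above H2O only, 77 with SA above H2O only, 137 with neither past 2-fold), grey points are less than 2-fold apart, dotted lines mark 2-fold from H2O and dashed lines 2-fold between JA and SA.

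For genes higher in JA, a rise in JA alone was the most frequent route. It applied to 154 of the 317 genes (48.6%), whose median level was 26.5 FPKM in JA, 7.08 in SA and 6.05 in H2O. The leading gene was LOC112184652, on NC_037089.1 from 59671218 to 59763525 (RchiOBHm-V2, the build used for all positions here). It was at 53.7 FPKM in JA, 0.199 in SA and 0.185 in H2O, a log2 ratio of JA to SA of 5.51. The gene did not belong to JA alone, since it reached 93.4 FPKM in 2,4-D and 31.95 in NAA and was listed at 0 in BR, GA3 and AgNO3. Its locus holds 4 other identifiers, among which reads may be shared, so its level is uncertain.

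LOC112167847, on NC_037088.1 from 46164403 to 46174440, came next. It was at 140 FPKM in JA, 4.61 in SA and 3.25 in H2O, a log2 ratio of 4.65. Among the solutions it was highest in JA, followed by BR with 51.8 FPKM, but air gave 86.2 FPKM. LOC112166923, on NC_037092.1 from 42167686 to 42169041, was at 61.2 FPKM in JA, 3.82 in SA and 1.66 in H2O, a log2 ratio of 3.69. No other solution brought it above the 16.04 FPKM of BR, but air gave 38.4 FPKM.

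The next genes of this kind repeated the pattern of a high JA level beside SA and water levels close to each other. LOC112177842 was at 45.3 FPKM in JA, 3.21 in SA and 4.88 in H2O. LOC112177451 was at 33.3, 2.14 and 1.66 FPKM in the same order. LOC112177707 was at 68.3, 6.61 and 4.08 FPKM. Their log2 ratios of JA to SA were 3.46, 3.45 and 3.19. All 3 were highest in JA among the solutions, and the first shares its locus with 6 other identifiers. Air gave 56.5 FPKM for the first, above its level in JA, 23.3 for the second and 30.9 for the last.

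LOC112175281 was the strongest gene of the leading 10, with 422 FPKM in JA, 46.6 in SA and 57.4 in H2O. It was higher still in BR, at 609 FPKM. LOC112194790 was at 17.7 FPKM in JA, 1.21 in SA and 1.51 in H2O. LOC112184237 was at 106, 11.99 and 18.1 FPKM. In these 3 genes SA was slightly below water, with log2 ratios of JA to SA of 3.15, 3.08 and 3.04.

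In 43 further genes higher in JA, both acids were above water and JA was further above it. The median level was 69.9 FPKM in JA, 20.8 in SA and 5.70 in H2O, so these genes were the most strongly expressed of the routes in JA. LOC112165882, on NC_037092.1 from 21626349 to 21627069, was at 221 FPKM in JA, 28.0 in SA and 11.7 in H2O. LOC112197449 was at 145, 20.1 and 5.50 FPKM. LOC112189238 was at 402, 63.9 and 17.1 FPKM. JA gave the highest level of all solutions in these 3 genes, with log2 ratios of JA to SA of 2.93, 2.79 and 2.63. Air gave 177, 55.2 and 240 FPKM. Of the 43 genes, 27 were nearer to the JA level than to the SA level in GA3, 6 in BR and 6 in AgNO3.

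A fall in SA alone set 51 genes apart, 16.1% of those higher in JA. Their median was 10.9 FPKM in JA, 3.15 in SA and 12.97 in H2O. LOC112199856 was at 24.2 FPKM in JA, 1.42 in SA and 48.4 in H2O, a log2 ratio of JA to SA of 3.38. JA was itself below water for this gene, with a log2 ratio of -0.98 that missed the limit, and BR was lower than SA, at 0.280 FPKM. Its locus is shared by 7 other identifiers. LOC112166373 was at 42.9 FPKM in JA, 9.07 in SA and 26.0 in H2O. LOC112173308 was at 201, 49.8 and 185 FPKM. In LOC112173308, AgNO3 and GA3 were the next lowest solutions after SA, at 64.0 and 79.0 FPKM. A single gene higher in JA had both acids below water.

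The 68 genes with JA slightly above and SA slightly below water (21.5%) had a median of 44.3 FPKM in JA, 20.7 in SA and 28.7 in H2O. LOC112187816 was at 221 FPKM in JA, 72.3 in SA and 134 in H2O. LOC112202617 was at 468, 165 and 261 FPKM. LOC112202722 was at 43.3, 14.8 and 21.9 FPKM. By the definition of this group, the acids lay on opposite sides of water, each by less than 2-fold.

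For genes higher in SA, the leading gene stood far from all others. The gene LOC112168074 (NC_037092.1, positions 70413193 to 70414188) stood at 624 FPKM in SA, 12.3 in JA and 25.8 in H2O, a log2 ratio of JA to SA of -5.56. It was the 1 gene with the acids moved in opposite ways by at least 2-fold from water, with a log2 ratio to H2O of 4.55 in SA and -1.01 in JA. JA was therefore only just past the limit. Other treatments also raised it, NAA to 339 FPKM, BR to 218 and 6-BA to 97.4, while ABA held it at 4.63. Of the conditions given as gas, 1-MCP was at 3.05 FPKM and its air control at 57.7. The next gene, LOC112170452, had a log2 ratio of -2.65.

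A rise in SA alone was the route of 77 of the 222 genes higher in SA (34.7%). These genes were weakly expressed, with medians of 4.995 FPKM in SA, 1.22 in JA and 1.11 in H2O, and 17 of the 77 reached 10 FPKM. LOC112170452 was at 10.2 FPKM in SA, 0.789 in JA and 1.87 in H2O. LOC112165852 was at 43.9, 8.67 and 13.7 FPKM, a log2 ratio of -2.21. LOC112169606 was at 54.0, 12.4 and 6.43 FPKM, a log2 ratio of -2.04. SA gave the highest level among the solutions for all 3. The second was also at 36.7 FPKM in NAA and the last at 47.7 FPKM in AgNO3. In air only the last was above its level in SA, at 76.7 FPKM.

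A fall in JA alone accounted for 54 genes (24.3%), with medians of 7.83 FPKM in SA, 2.52 in JA and 9.48 in H2O. SA thus stood near water in these genes. LOC112189920 was at 29.0 FPKM in SA, 4.35 in JA and 19.5 in H2O, a log2 ratio of -2.49. LOC112192269 was at 84.7, 19.4 and 115 FPKM. LOC112196014 was at 76.5, 20.4 and 56.0 FPKM. The low level was not confined to JA, as BR gave 8.94 FPKM for the first and 14.7 for the second, and air gave 4.62 FPKM for the last. Of the 54 genes, 40 were nearer to JA than to SA in BR (74.1%) and 42 in 1-MCP (77.8%). In air, the control of 1-MCP, 34 of them were nearer to JA (63.0%). LOC112187601 was at 25.8 FPKM in SA, 4.60 in JA and 36.6 in H2O, but was at 0.00299 FPKM in BR and lower still in GA3 and AgNO3, and it lies in a locus with 3 other identifiers.

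In 9 genes higher in SA, both acids were below water and JA was further below it. LOC112199947 was at 69.1 FPKM in SA, 16.4 in JA and 153 in H2O. LOC112176277 was at 23.4, 5.95 and 53.7 FPKM. LOC112165827 was at 12.3, 3.29 and 36.7 FPKM. All 3 were lower still in BR, at 6.99, 1.56 and 2.25 FPKM. The levels of all 9 genes in BR, air and 1-MCP were nearer to JA than to SA.

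Both acids were above water in 12 genes higher in SA, with medians of 10.1 FPKM in SA, 4.30 in JA and 0.633 in H2O. LOC112192338 was at 11.6 FPKM in SA, 4.82 in JA and 0.730 in H2O. LOC112186922 was at 13.1, 5.53 and 0.0803 FPKM. LOC112187357 was at 15.4, 6.65 and 2.38 FPKM. The difference between the acids was close to 2-fold in all 3, with log2 ratios of -1.11, -1.11 and -1.10.

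The last 69 genes higher in SA (31.1%) had neither acid 2-fold from water, with medians of 5.94 FPKM in SA, 2.04 in JA and 3.74 in H2O. LOC112172703 was at 19.4 FPKM in SA, 5.70 in JA and 10.8 in H2O. LOC112192999 was at 10.5, 2.98 and 5.05 FPKM. LOC112187892 was at 12.1, 3.98 and 8.77 FPKM. Water lay between the acids in each of them, as the definition of the group requires. BR was below JA in these named genes, at 1.81, 0.178 and 2.24 FPKM.

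**Figure D3:**
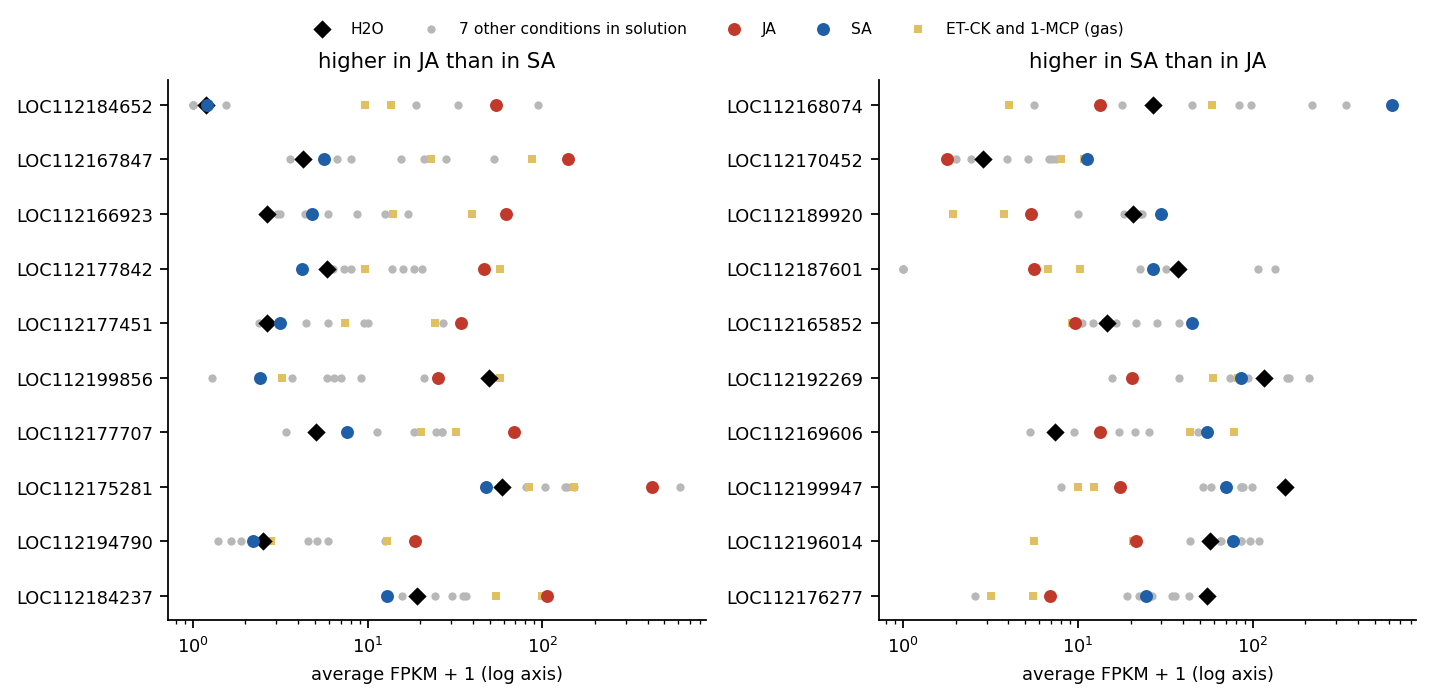
Average FPKM plus 1 (log axis) in 12 conditions for the 10 genes with the largest log2 ratio in each direction that reached 10 FPKM in either acid. In the left panel JA (red) lies right of SA (blue), with SA close to H2O (black diamond) for most genes, and in the right panel LOC112168074 stands apart with 624 FPKM in SA against 12.3 in JA.

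Genes at the limit show how narrow the line between called and not called is. They were taken only among genes of at least 10 FPKM in JA or SA. The last of these counted as higher in JA was LOC112186661, with 81.3 FPKM in JA and 40.1 in SA. The first left out was LOC112196856, with 29.2 and 14.1 FPKM. On the other side, LOC112199663 was counted with 6.51 FPKM in JA and 14.02 in SA, and LOC112200418 was left out with 9.17 and 19.3 FPKM.

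The very abundant genes called were almost all on the JA side in the values as deposited. The split of the calls depended on the scaling, and its effect in this level range was not computed. Of the 101 compared genes with at least 1000 FPKM in an acid, 9 were called, and 8 of these were higher in JA. They are listed here because of that level and after it was seen. LOC112166597, on NC_037092.1 from 43569431 to 43570524, was at 1594 FPKM in JA, 306 in SA and 423 in H2O. LOC112180411 was at 2288, 625 and 1010 FPKM. LOC112189955 was at 4776, 1986 and 2847 FPKM. In LOC112166597 and LOC112180411 JA was more than 2-fold above water, whereas in LOC112189955 water lay between the acids. The single gene of this level higher in SA was LOC112192943, with 1185 FPKM in SA, 474 in JA and 1961 in H2O. It was more than 2-fold below water in JA.

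The other conditions give context for the differences between the acids. The genes were chosen for a high level in JA or SA relative to the other acid, which favours these acids in the counts below. The same counts over all compared genes were not made, so the counts do not measure how particular a difference was to an acid. Among the 10 solutions, JA gave the highest level for 185 of the 317 genes higher in JA, BR for 58 and ABA for 36. SA gave the lowest level for 85 of them, H2O for 70 and NAA for 66. SA gave the highest level for 98 of the 222 genes higher in SA, ABA for 32 and AgNO3 for 31. The lowest level of these genes was more often in BR than in JA, with 68 genes against 59, and ABA followed with 52.

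Each other condition was also placed by whether its log2 level was nearer to JA or to SA. AgNO3 was near SA in both directions, being nearer to JA in 22.7% of the genes higher in JA and 16.2% of those higher in SA. NAA followed with 18.6% and 30.2%. BR was nearer to JA in 51.7%, close to an even split, and in 68.0%. Water was nearer to JA in 25.6% of the genes higher in JA and in 59.5% of those higher in SA, so it usually lay with the acid of the lower level. The same held for 1-MCP with 35.6% and 73.4% and, by a smaller margin, for ABA with 30.0% and 55.9%. For 6-BA, with 28.1% and 52.7%, most genes higher in JA were nearer to SA, and those higher in SA were divided almost evenly. GA3 was divided, with 49.8% and 42.3%, as was 2,4-D with 44.2% and 54.1%. Air had 49.5% and 68.9%.

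**Figure D4:**
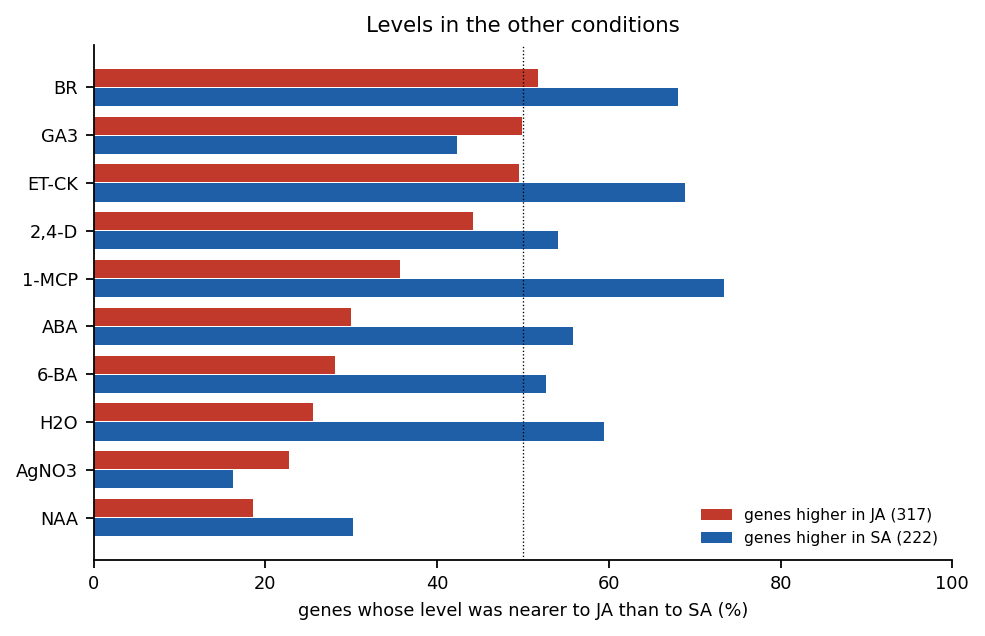
Share of genes (horizontal axis, %) whose average level in each of 10 other conditions was nearer to JA than to SA on the log2 scale of FPKM plus 1. Red bars are the 317 genes higher in JA and blue bars the 222 higher in SA, the dotted line marks 50%, and AgNO3 and NAA stay below it in both directions while BR is above it in both.

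Some of the genes higher in JA lay next to each other. Compared genes were put in order along the chromosomes, and identifiers of a common locus by number. Of the 317 genes higher in JA, 64 (20.2%) had a direct neighbour called the same way. They formed 25 stretches, of which 9 held at least 3 genes and the longest 6. Of the 222 genes higher in SA, 12 (5.41%) were in 6 stretches, each of 2 genes. Identifiers within a common locus were involved in 11 of the 25 and 1 of the 6 stretches, and their reads may not be told apart. Genes higher in JA were 2.24% of all compared genes and those higher in SA 1.57%. Neighbours called alike are therefore not equally likely in both directions. How many such neighbours genes taken without regard to the call would have was not computed. By chromosome, the share of compared genes higher in JA went from 1.68% on NC_037089.1 to 3.21% on NC_037094.1.

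The longest stretch, picked for its length, was on NC_037094.1 from 69728749 to 69935522. In JA, LOC112180511 was at 5.44 FPKM, LOC112180512 at 181 and LOC112179127 at 46.8. LOC112175281 was at 422 FPKM, LOC112180668 at 752 and LOC112180411 at 2288. In SA the same genes were listed at 0 and at 48.7, 8.09, 46.6, 140 and 625 FPKM. In water they were listed at 0 and at 58.5, 8.37, 57.4, 134 and 1010 FPKM. JA alone had moved in all 6. BR was higher than JA in LOC112180512, LOC112179127, LOC112175281, LOC112180668 and LOC112180411, with 245, 94.9, 609, 1083 and 2360 FPKM. LOC112176596 and LOC112176597, listed just before the stretch, were also higher in JA. LOC112176598, listed between them and the stretch, was at 0.722 FPKM in JA and 1.04 in SA. LOC112176596 was at 50.3 FPKM in JA and 10.6 in SA. LOC112176596, LOC112176597, LOC112176598, LOC112180511 and LOC112180512 share a locus, as do LOC112175281 and LOC112180668. Identifiers of a common locus have the same deposited position and were ordered by number. Their true order, and with it the length of the stretch, is therefore uncertain.

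**Figure D5:**
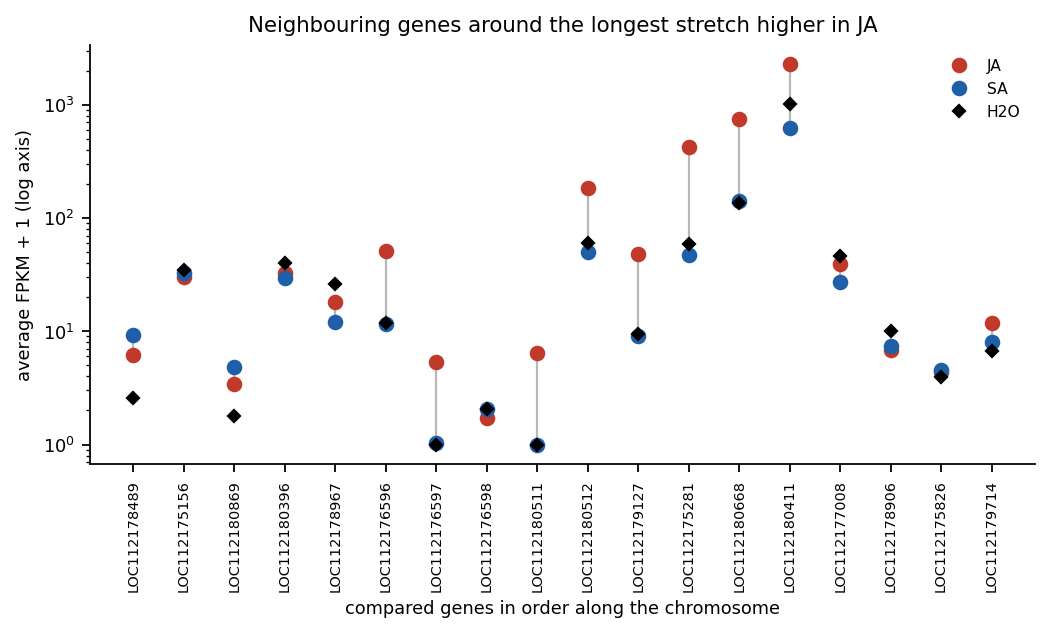
Average FPKM plus 1 (log axis) in JA (red), SA (blue) and H2O (black diamonds), with a grey line joining JA and SA. Shown are 18 compared genes around the longest stretch of genes higher in JA. They are in chromosome order, with identifiers of a common locus ordered by number. From LOC112180511 to LOC112180411 the JA point lies above SA and H2O, which are less than 2-fold from each other, while in the last 4 genes the 3 points are less than 2-fold apart.

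Another stretch of 4 genes, on NC_037090.1 from 21439803 to 21487189, held no shared locus. LOC112193160 was at 1372 FPKM in JA, 521 in SA and 522 in H2O. LOC112192713 was at 11.9, 2.75 and 3.37 FPKM. LOC112192613 was at 86.3, 21.8 and 23.96 FPKM. LOC112194865 was at 115, 19.8 and 31.4 FPKM. SA was at or below water in all 4, and JA was more than 2-fold above water. BR was higher than JA in LOC112192613 and LOC112194865, at 129 and 164 FPKM. It was close to JA in LOC112193160, at 1357 FPKM, and lower in LOC112192713, at 7.11 FPKM.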

How the data were processed

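Petal RNA was sequenced in 39 libraries, 3 per condition, and the authors mapped cleaned reads with TopHat2 to RchiOBHm-V2 and computed FPKM with Cufflinks and Cuffdiff. For each condition, 38170 transcripts were deposited with 1 FPKM each, the average over its replicates. No column was left unmapped. The file for ethylene held values equal to those of air in all 38170 transcripts and was not used.

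FPKM were summed over transcripts with a common identifier, and 9 identifiers join neighbouring genes. Genes of at least 1 FPKM in JA or SA were compared by log2 ratios with a pseudocount of 1. A limma fit needs replicate values and was not run. Named genes were the 10 largest ratios per direction, and the 3 largest per route and direction, among genes of at least 10 FPKM. The 20 gene lists matched no identifier. The members, lists and rules were chosen with earlier results of these data known. The code was checked on simulated data. Alternatives were a pseudocount of 0.1, a minimum of 5 FPKM or none, a log2 threshold of 0.5, median scaling, single transcripts and, chosen after the data were seen, scaling to equal sums and removal of the trend with level. Python 3.11.15, numpy 2.4.6, pandas 2.3.3 and matplotlib 3.10.9 were used.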

Additional observations from a re-analysis of the deposited data

How the results depend on the processing

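No replicate can be left out and no leave-one-out range was run, because the files hold averages. No paired analysis was possible because the averages carry no replicate numbers. The gene lists matched nothing under any setting. With a pseudocount of 0.1, 495 genes were higher in JA and 568 in SA, and JA alone had moved in 327, SA alone in 308, both the same way in 180, in opposite ways in 13 and neither in 235. At a log2 threshold of 0.5 these counts were 1537, 1585, 718, 1092, 722, 59 and 531. A minimum of 5 FPKM left 130 genes higher in SA and 75 with SA alone moved. Without summing, 548 transcripts were higher in JA, SA alone had moved in 343 and opposite ways in 3. Scaling to equal sums, chosen after the data were seen, gave 567 genes higher in SA, 277 with SA alone moved and 105 with both moved the same way. Removal of the trend with level, also chosen afterwards, left 2 genes moved in opposite ways. The other counts stayed within 1.5 times. For the 35 genes named by rule, 245 ratios were taken, under every alternative except single transcripts, which was not run for them. A minimum FPKM or a log2 threshold does not enter a ratio, so ratios under those settings repeated the main values by construction. Of the 245, these repeats included, 243 kept their direction and stayed past the threshold. LOC112186922 and LOC112187357 reached -0.99 with the trend removed. Causes were not tested.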

Other observations

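Sums over transcripts can hide differences between them. Of 488 genes with at least 2 transcripts of 5 FPKM or more in JA or SA, 9 had transcripts at least 2-fold apart in opposite ways, and all 9 were less than 2-fold apart when summed. These genes were picked for this pattern. In LOC112177146 the transcript listed first was at 21.3 FPKM in JA, 55.9 in SA and 24.2 in H2O, and the one listed second at 10.1, 0.0156 and 31.5 FPKM. AgNO3 resembled SA in this gene, with 47.7 and 0.349 FPKM. In LOC112193487 the first transcript was at 7.76 FPKM in JA, 0.0115 in SA and 6.79 in H2O, and the second at 5.65, 16.2 and 6.15 FPKM. Levels of single transcripts of a gene are estimates that divide common reads, and the depth behind them is not in the files.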
